A study of Mus musculus with 2 samples.

Results

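Transcripts that the GENCODE mouse annotation types as targets of nonsense-mediated decay (NMD) were examined in long-read RNA-seq of mouse cortex. Members are annotated transcripts of type nonsense_mediated_decay to which at least 1 read was assigned, joined between libraries by transcript identifier. The annotation holds 7186 such transcripts in 4576 genes. Reads were found for 799 of them, in 714 genes, among 24556 annotated transcripts of any type with reads. Both libraries were made from total RNA (2 µg) extracted from left cerebral cortex of female B6CASTF1/J mice, an F1 cross of C57BL/6J and CAST/EiJ, at 14 days of age, with no treatment given in the labels. They are biological replicates 1 and 2 of 1 group, so the design holds no condition to compare. The label of replicate 1 can be read as tissue pooled from several females, and both libraries carry 1 strain-level donor entry. Tests below therefore set these libraries against each other with counting error alone and do not compare conditions.

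NMD is a surveillance pathway that degrades mRNAs whose reading frame ends too early. After splicing, an exon junction complex stays on the mRNA upstream of each junction, and a ribosome that stops well before the last junction leaves such a complex in place, which recruits the UPF and SMG factors. In the brain the pathway is also used with regulated splicing: exons that carry a stop codon, often called poison exons, lower the output of splicing factor genes and of neuronal genes. Reads on such transcripts in untreated tissue count what was present at the time of extraction, and a steady level does not tell synthesis from decay.

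The sequences that put the stop codon early are shown for the 7 members with the most reads whose stop codon lies in an exon that the gene's most-read coding transcript lacks, and for Srsf3-201 as a second SR protein gene. Each run starts at the first base of that exon and ends with the stop codon, which is in capitals. All are GENCODE M21 transcript sequence on mm10, read 5′ to 3′ on the transcript strand.
Yaf2-202: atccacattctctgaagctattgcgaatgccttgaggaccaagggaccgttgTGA
Cbarp-212: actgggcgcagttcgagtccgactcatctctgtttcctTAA
Syt16-201: ctgagaagtgtTGA
Nt5c3-208: aagattggaTAA
Srsf9-205: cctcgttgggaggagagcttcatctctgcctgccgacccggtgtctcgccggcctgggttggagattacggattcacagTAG
Rhbdd2-205: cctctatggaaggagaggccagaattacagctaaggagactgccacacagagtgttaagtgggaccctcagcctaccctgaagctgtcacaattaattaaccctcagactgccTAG
Rbm7-204: tatttgaggcagagagccataTAG
Srsf3-201: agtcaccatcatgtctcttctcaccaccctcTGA
The exons lie at chr15:93317539-93317608 (minus strand, Yaf2, 70 bases), chr10:80136690-80136743 (minus, Cbarp, 54 bases), chr12:74162056-74162876 (plus, Syt16, 821 bases) and chr6:56897775-56897829 (minus, Nt5c3, 55 bases). The other exons lie at chr5:115328347-115328704 (plus, Srsf9, 358 bases), chr5:135635104-135635223 (plus, Rhbdd2, 120 bases), chr9:48494283-48494387 (minus, Rbm7, 105 bases) and chr17:29039454-29039909 (plus, Srsf3, 456 bases). The stop codon thus ended 12 bases into the Nt5c3 exon and 14 bases into the Syt16 exon, but 116 bases into the Rhbdd2 exon.

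In other members a short shift of a splice site moves the frame. For these pairs, 20 bases are shown on each side of the junction, with the bases present in only 1 of the pair in capitals. The pairs are the most-read splice-site member, Cyth2-203, beside the coding Cyth2-202, and the tetraspanin transcript Tspan5-207 beside the coding Tspan5-201.
Cyth2-203: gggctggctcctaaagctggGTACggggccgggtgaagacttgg
Cyth2-202: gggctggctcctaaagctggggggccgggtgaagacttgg
Tspan5-207: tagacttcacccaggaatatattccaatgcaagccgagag
Tspan5-201: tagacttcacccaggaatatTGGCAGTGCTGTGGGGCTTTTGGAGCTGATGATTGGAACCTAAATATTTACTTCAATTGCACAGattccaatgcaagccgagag
The 5′ splice site of Cyth2-203 lies 4 bases downstream of that of Cyth2-202, and the last base they share before it is chr7:45810127 on the minus strand. Tspan5-207 uses a 3′ splice site 64 bases further into the exon than Tspan5-201, and the first base they share after it is chr3:138896853 on the plus strand. Another group skips an exon. For Rnf114-203, which lacks a 151-base exon at chr2:167507047-167507197 (plus strand), and for Ndufs4-202, which lacks a 79-base exon at chr13:114351448-114351526 (minus strand), the last 20 bases before the new junction are given with what follows up to the stop codon in capitals.
Rnf114-203: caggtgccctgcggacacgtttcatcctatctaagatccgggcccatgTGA
Ndufs4-202: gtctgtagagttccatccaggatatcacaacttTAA
The stop codon ended 31 bases after the new junction in Rnf114-203 and 16 bases after it in Ndufs4-202.

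Replicate 1 held 1072344 mouse reads and replicate 2 held 753520, without spike-in RNA. Of these, 719478 and 480951 reads were on annotated transcripts, which are called annotated reads from here on. RPM is reads per 1000000 mouse reads, so that 1 read was worth 0.933 and 1.33 RPM. The cortical neuron gene Slc17a7 had 1334 and 839 reads, the cerebellar markers Pcp2 and Cbln3 had 0 in both libraries, and the oligodendrocyte gene Mbp was lower in replicate 2, at 3673 and 2142 RPM. Duplicate reads cannot be told from separate molecules here, and all intervals are therefore limited to counting error.

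NMD-typed transcripts were a small fraction of the annotated reads. Replicate 1 had 3614 of them, 0.502% of its annotated reads with a Wilson 95% interval of 0.486 to 0.519%. Replicate 2 had 2368, or 0.492% (0.473 to 0.513%). The ratio of the shares, replicate 2 over replicate 1, was 0.980 (95% interval 0.931 to 1.03), a difference not detectable at this depth (two-sided Fisher's exact test, p = 0.451). Transcripts typed as retained_intron, the closest noncoding class, took 1.14% and 1.33%, and their share was higher in replicate 2 (ratio 1.17, interval 1.13 to 1.21, Fisher's exact test, p = 1.72e-20). Protein-coding transcripts took 95.8% and 95.6%. Of the annotated transcripts of each type, 11.1% of NMD-typed, 12.2% of retained-intron and 31.0% of protein-coding ones had a read.

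Most members were rare. In replicate 1, 649 had reads and in replicate 2, 542. Both libraries shared 392 members, while 257 were seen in replicate 1 only and 150 in replicate 2 only. Exactly 1 read over both libraries was all that 301 members had, 118 members had 10 or more, and 10 had 100 or more. Those with the most reads carried much of the signal: the top 10 held 33.5% of the 5982 NMD-typed reads (34.7% in replicate 1 and 31.5% in replicate 2), and the top 50 held 56.4%. Annotation support went with detection. Of the annotated NMD transcripts with the best transcript support level, 1, reads were found for 415 of 2080 (20.0%), against 129 of 2351 (5.49%) at level 5, the weakest level. Cyth2-203, Cbarp-212, Nt5c3-208 and Srsf9-205 are level 5 entries with many reads.

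The share of a gene's annotated reads that lay on NMD-typed transcripts was compared among genes with at least 20 annotated reads in each library. Of 1254 such genes with an annotated NMD transcript, 358 (28.5%) had NMD-typed reads, with a median share of 2.25%. The share was 5% or more in both libraries in 91 genes, 10% or more in 63, 20% or more in 30 and 50% or more in 11. Detection was lowest in the least-read genes: 12.6% of genes with 1 to 19 annotated reads over both libraries, 25.5% with 20 to 99, 29.5% with 100 to 499 and 28.3% with 500 or more had NMD-typed reads. Across the 358 genes, which share their libraries and differ in depth, the shares of the 2 libraries had a Pearson correlation of 0.942 and a Spearman correlation of 0.559, given as a description. The Wilson intervals of the 2 libraries overlapped in 356 of the 358 genes. In most of these genes another transcript was read more often, and only 12 of their 412 members ranked first.

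**Figure D1:**
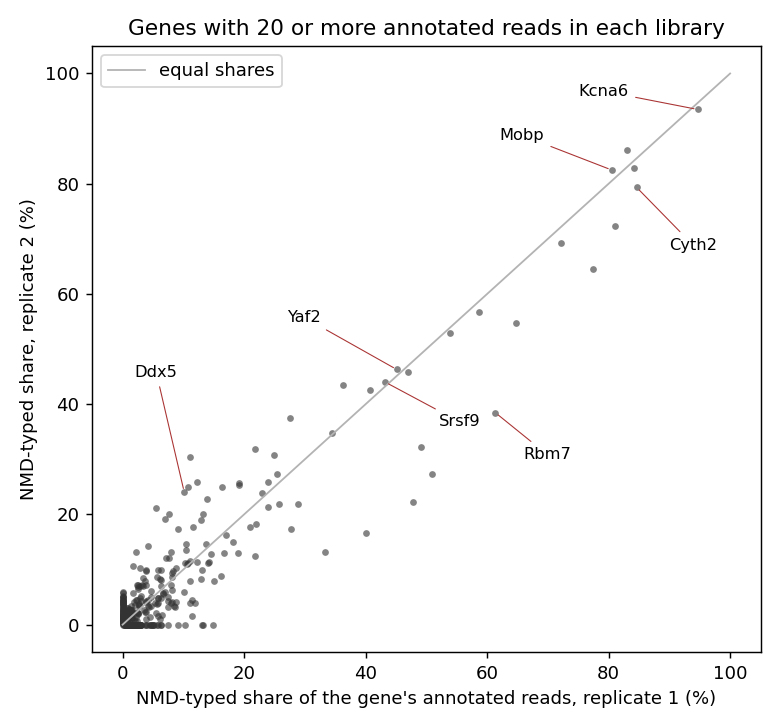
NMD-typed share of each gene's annotated reads (%) in replicate 1 (x axis) against replicate 2 (y axis), 1 point for each of the 358 genes with 20 or more annotated reads in each library and NMD-typed reads; the line marks equal shares. Most points lie near the origin, 11 genes reach 50% in both libraries, and Ddx5 lies above the line at 10.1% and 24.1%.

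Genes in which the NMD-typed transcript was the main annotated transcript included several of neurons and glia. Kcna6 encodes the voltage-gated potassium channel Kv1.6. Kcna6-201 (chr6:126708329-126740662, minus strand) had 53 of the gene's 56 annotated reads in replicate 1 (94.6%). In replicate 2 it had 43 of 46 (93.5%). It differs from the coding Kcna6-202 in its last exon, has the same stop codon, and its only junction after the stop lies 3120 bases downstream. Its intron chain is the same as that of Kcna6-204, which has another type, so junctions alone do not tell the reads of these transcripts apart.

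Mobp encodes a basic protein of the myelin sheath made by oligodendrocytes. Mobp-204 (chr9:120149742-120181484, plus strand) had 165 reads in replicate 1 and 66 in replicate 2, against 33 and 11 reads on the coding Mobp-201. Its share of annotated reads was 80.5% (Wilson interval 74.5 to 85.3%) and 82.5% (72.7 to 89.3%). The stop codon lies 264 bases before the last junction, with 2 junctions after it. Atp2a2 encodes SERCA2, the pump that returns calcium to the endoplasmic reticulum. Atp2a2-203 had 162 and 58 reads (64.8% and 54.7%), the coding Atp2a2-201 had 84 and 47, and the stop codon is the same, with 1 junction 1258 bases downstream. With all reads of the gene as the base, which adds models outside the annotation, Atp2a2-203 took 42.2% and 29.7%. Most reads of these genes on annotated transcripts were thus on a member in both libraries.

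Cyth2 encodes cytohesin-2, an exchange factor for ARF GTPases. Cyth2-203 (chr7:45807639-45814302, minus strand), with the 4 extra bases shown above, was the most-read member, at 209 reads in replicate 1 and 119 in replicate 2. The coding Cyth2-202 had 33 and 27 reads. The share of Cyth2-203 was 84.6% (79.6 to 88.6%) and 79.3% (72.2 to 85.0%). Cbarp encodes a regulator of voltage-gated calcium channels. Cbarp-212 had 101 and 82 reads (84.2% and 82.8%), but 35.6% and 30.6% of all reads of the gene, since 120 of 284 and 99 of 268 were on annotated transcripts. Syt16 belongs to the synaptotagmins, and Syt16-201, with its 821-base exon, had 111 and 60 reads (81.0% and 72.3% of annotated reads, 35.9% and 33.5% of all reads). The choice of base therefore weighs heavily on the values of Cbarp and Syt16.

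Rnf114 encodes a ubiquitin ligase, and Rnf114-203 had 88 and 56 reads (83.0% and 86.2%). The coding Rnf114-201 had 18 and 9. Pcnp, a nuclear protein gene, had 2 members that differ from the coding Pcnp-202 at a 3′ splice site: Pcnp-206 with 107 and 64 reads, and Pcnp-205 with 34 and 18. Together they took 77.5% and 64.6%, while Pcnp-202 had 41 and 44 reads. Crebzf, a bZIP transcription factor gene, had 3 members of 6 annotated, which remove an intron inside an exon of the coding transcript and together took 72.2% and 69.2%. In these genes, too, the coding transcript was the smaller fraction in both libraries.

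Other genes were divided more evenly. Yaf2 encodes a partner of the Polycomb ring finger proteins. Yaf2-202, with the 70-base exon, had 134 and 94 reads (45.1% and 46.3%), and the coding Yaf2-201 had 163 and 109. Nt5c3 encodes a pyrimidine nucleotidase, and Nt5c3-208 had 62 and 37 reads (53.9% and 52.9%). Exog encodes a mitochondrial nuclease, and its 2 members together took 58.7% and 56.7%. Plpp5, a lipid phosphatase gene, had 16 of 34 and 11 of 24 reads on 3 members. Rbm7 encodes a subunit of the nuclear exosome targeting complex, and Rbm7-204 had 27 and 10 reads (61.4% and 38.5%), a difference of -22.9 percentage points (95% interval -46.5 to 0.693). Hrh3-207, of the histamine H3 receptor, had 29 and 9 reads (50.9% and 27.3%), and Slc35b1-202, of a nucleotide transporter of the endoplasmic reticulum, 28 and 10 (49.1% and 32.3%). None of these 3 differences passed the test described below.

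In a further group the members took less than 50% of the gene's annotated reads in both libraries. Khdrbs3 encodes a neuronal splicing regulator, and Khdrbs3-204 had 121 and 50 reads (28.6% and 21.1%). Tspan5-207, with the 64-base shortening shown above, had 54 of 257 and 30 of 169 annotated reads, against 203 and 139 on Tspan5-201. Prdx6-208, of a peroxiredoxin gene, skips a 157-base exon and had 21 and 16 reads, only 3.85% and 4.15%, since the coding Prdx6-202 had 510 and 364. Tmem234, a membrane protein gene, had 6 members of 13 annotated, led by Tmem234-210 with 36 and 28 reads. Together the members took 40.7% and 42.6%, and the coding Tmem234-201 took 44.4% and 38.3%. Nubp2, of an iron-sulfur cluster assembly factor, also had 6 members, of 7 annotated, with 23.9% and 25.9% of its 67 and 27 annotated reads. More than 1 member was found in 69 genes.

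**Figure D2:**
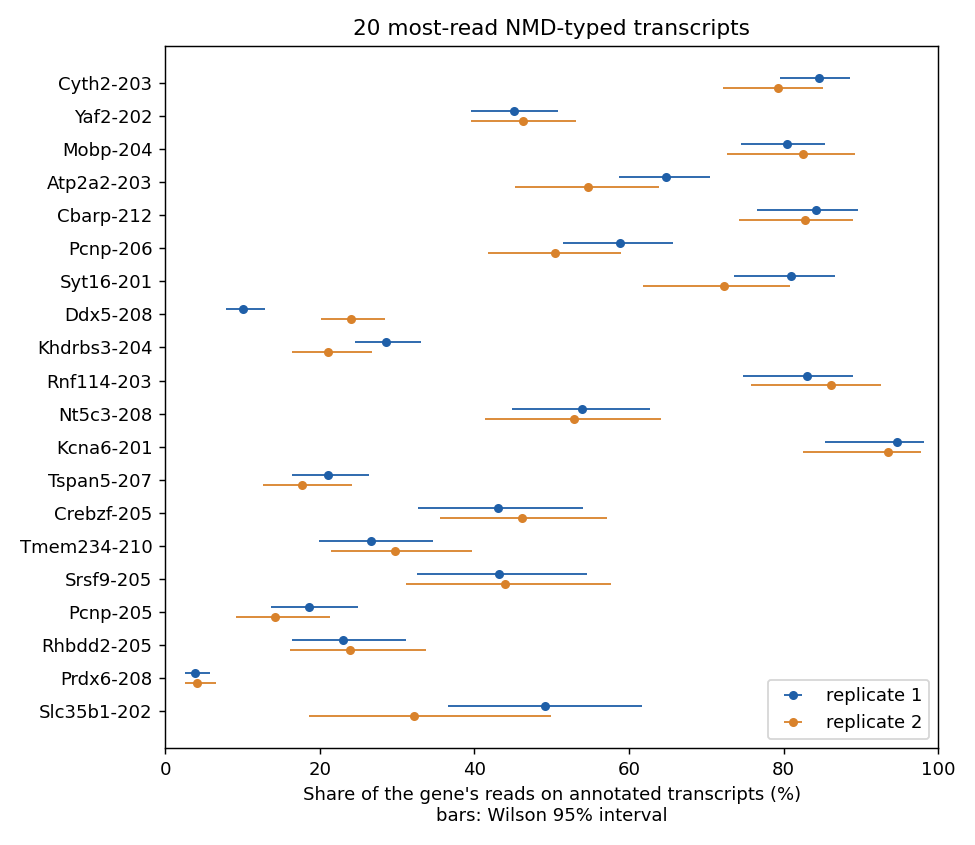
Share of the gene's annotated reads (%) on each of the 20 members with the highest mean RPM, in replicate 1 (blue) and replicate 2 (orange), with Wilson 95% intervals as bars. Shares run from 3.85% for Prdx6-208 to 93.5% or more for Kcna6-201, and Ddx5-208 is the only one of the 20 whose intervals do not overlap.

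Each member's share was compared between the libraries by a two-sided Fisher's exact test over all annotated transcripts with at least 5 reads in total, in genes with at least 20 annotated reads in each library. Benjamini-Hochberg adjusted p under 0.05 was called. Of 154 members tested, 1 was called, as higher in replicate 2. Over all 5352 transcripts tested, 3 were called (0.0561%), 1 as higher (0.0187%) and 2 as lower (0.0374%). Unadjusted p was under 0.05 in 12 members (7.79%) and in 250 of all transcripts (4.67%). The median difference, replicate 2 minus replicate 1, was 0.292 percentage points in members and -0.0561 over all transcripts. The call was Ddx5-208 (chr11:106781548-106788494, minus strand), of the DEAD-box RNA helicase p68, which retains an intron of the coding Ddx5-201. It had 56 of the gene's 552 annotated reads in replicate 1 (10.1%) and 98 of its 407 in replicate 2 (24.1%), a rise of 13.9 points (95% interval 9.08 to 18.8, Fisher's exact test, adjusted p = 2.3e-05). Ddx5-201 had the gene's other annotated reads, 496 and 309, and was 1 of the 2 transcripts called as lower. Ddx5-208 and Ddx5-201 are thus 2 of the 3 calls over all transcripts and show the same difference. The retained_intron type as a whole was also higher in replicate 2, as given above, and its part in the Ddx5 value was not tested.

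The members next in order were not called. Scamp4-203 had 9 of 68 and 0 of 63 reads, in this order of the libraries (Fisher's exact test, adjusted p = 0.425). Hnrnpdl-201 had 2 of 112 and 10 of 94 (adjusted p = 0.781, same test), and Ivns1abp-204 had 8 of 114 and 13 of 68 (adjusted p = 0.829, same test). The Khdrbs3-204 difference was -7.51 points (95% interval -14.3 to -0.761, unadjusted p = 0.0414, adjusted p = 1, same exact test). For these members a difference between the libraries was not shown at this depth.

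For levels, the split of each transcript's reads was set against the split of the mouse reads in an exact binomial test (two-sided), over all annotated transcripts with at least 10 reads in total. Of 118 members, 3 were called at adjusted p under 0.05, 1 as higher in replicate 2 and 2 as lower. Of all 10256 transcripts 56 were called (0.546%), 12 as higher (0.117%) and 44 as lower (0.429%). Unadjusted p was under 0.05 in 12 members (10.2%) and in 811 of all transcripts (7.91%). The median log2 ratio was 0.09 in members and -0.04 over all. Ddx5-208 was higher in replicate 2, at 52.2 RPM in replicate 1 and 130 RPM in replicate 2, a log2 ratio of 1.31 (SE 0.24, exact binomial test, adjusted p = 2.22e-05). Atp2a2-203 was lower in replicate 2, at 151 and 77.0 RPM (log2 ratio -0.96, SE 0.22, adjusted p = 0.00258, same exact test). Mobp-204 was lower too, at 154 and 87.6 RPM (log2 ratio -0.81, SE 0.21, adjusted p = 0.0196, same exact test).

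The Mobp-204 call was lost when the totals of annotated reads were used (log2 ratio -0.73, exact binomial test, adjusted p = 0.0803). The oligodendrocyte gene Mbp was lower in replicate 2 as well, by the values given above, and its part in the Mobp-204 level was not tested. In bulk tissue, fewer oligodendrocytes and less RNA per cell cannot be told apart. The share of Mobp-204 within its gene differed by 2.01 points (95% interval -7.93 to 11.9), less than its counting error.

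By the annotation's own criteria an NMD-typed transcript has its stop codon well before the last junction, so the following values describe the members. The distance from stop codon to last junction had a median of 351.5 bases (quartiles 161 and 742, range 35 to 3667) over the 798 members with a stop codon, and was 50 bases or more in 795. After the stop lay 1 junction in 192 members, 2 in 152 and 3 or more in 454. Stop codons were TGA in 59.9% of members, TAA in 20.2% and TAG in 19.9%, and in 52.1%, 23.2% and 24.7% of the 681 coding transcripts they were compared with.

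**Figure D3:**
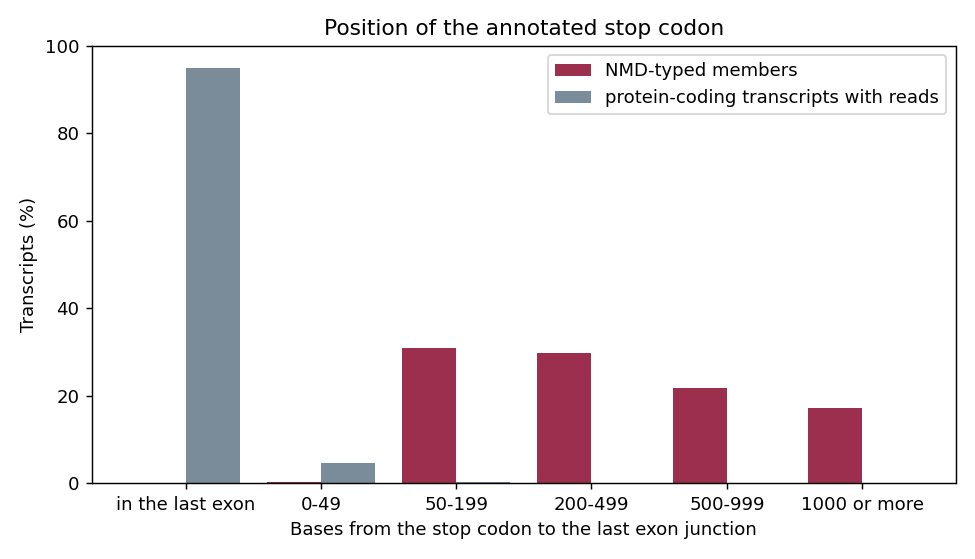
Percent of transcripts (y axis) by the distance in bases from the annotated stop codon to the last exon junction (x axis), for the 798 members with a stop codon and 17339 protein-coding transcripts with reads. Protein-coding transcripts lie at the left, 94.9% of them with the stop in the last exon, and 3 members lie under 50 bases.

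Against the most-read coding transcript of the gene, available for 764 members, a skipped exon was the most frequent difference. Exons were skipped in 232 members (30.4%), another 5′ splice site was used in 177 (23.2%), an extra exon was present in 169 (22.1%) and another 3′ splice site was used in 166 (21.7%). Retained introns (34), other last exons (52), other first exons (28) and introns within a coding transcript's exon (26) were less frequent. A member can have several. By reads the order was another: members with an extra exon had 877 and 585 reads, with another 5′ splice site 826 and 518, with another 3′ splice site 644 and 450, with a skipped exon 628 and 394, and with another last exon 619 and 283. Mobp-204, Atp2a2-203, Khdrbs3-204 and Kcna6-201 are among the 52 members with another last exon. Against the coding transcript with most exons, members with another last exon had 441 and 200 reads and those with a skipped exon 762 and 499.

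**Figure D4:**
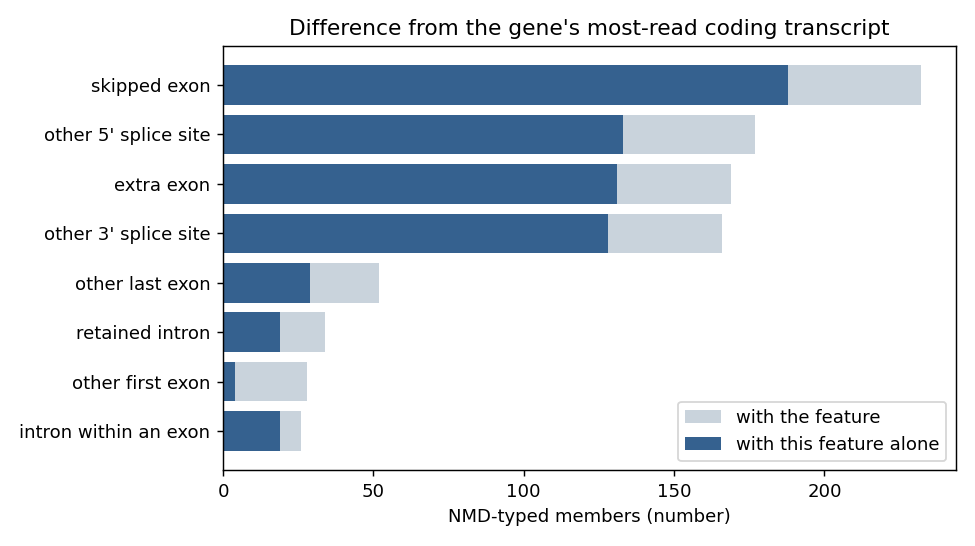
Number of members (x axis) with each difference in exon structure from the gene's most-read coding transcript (y axis), over 764 members; the dark part counts members in which it is the only difference. A skipped exon is found in 232 members and is the only difference in 188.

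In the annotation, whose coding frames were not measured here, most members had the start codon of the coding transcript and another stop codon. The start codon was that of the coding transcript in 669 of 764 members, another in 23, and could not be compared in 72. The same start and another stop were found in 635. The stop codon was the same in 40 members, with 12.5% and 10.7% of NMD-typed reads, and in these the junctions after it lie in the 3′ untranslated region. Among 175 distinct extra exons, 126 held the stop codon, as in the sequences above, and the median length was 102 bases. A length that is a multiple of 3, which keeps the frame, was found in 54 of the extra exons (30.9%) and in 28 of 262 distinct skipped exons (10.7%), against 39.5% of 96005 internal coding exons of coding transcripts with reads. The type calls for an early stop, and skipping an exon of such a length keeps the frame. The low value of the skipped exons therefore follows in large part from how the members are typed and is only a description. The skipped exons had a median length of 115 bases and those internal exons 120. Cbarp-212 and Rhbdd2-205 are members whose extra exon is a multiple of 3 in length and holds a stop codon in frame.

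Members with reads were longer than annotated NMD transcripts without. In genes with at least 20 annotated reads in each library, the median length was 1426.5 bases for 412 members and 813 for 1567 NMD transcripts without reads. The same medians were 2249 and 759 bases in protein-coding transcripts and 962 and 765 in retained-intron transcripts. Models with an incomplete end were 10.2% of the members and 33.6% of the NMD transcripts without reads. A read is assigned to an annotated transcript through its splice junctions, and the part of incomplete models in detection was not tested.

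The genes that hold the members were nearly all protein-coding (713 of 714, with 1 polymorphic pseudogene). Genes were grouped into 23 lists by role, and the NMD-typed share of each list's annotated reads was set beside that of all genes, 0.502% and 0.492%. That base includes genes without an annotated NMD transcript, which can hold no such read. Genes with one had 186801 of 719478 and 123481 of 480951 annotated reads. In them 1.93% of annotated reads were NMD-typed, over both libraries together. SR proteins, which bind exons and promote splicing, stood at 6.06% (Wilson interval 4.67 to 7.85%) and 5.20% (3.67 to 7.33%). Of 13 SR genes with reads, 11 have annotated NMD transcripts and 6 had reads on them. The 11 genes held 830 of the list's 874 and 541 of its 577 annotated reads, so that 1.93% is the closer comparison. NMD-typed reads of the list were 53 and 30. Srsf9 held 65.1% of those reads: Srsf9-205, with its stop-bearing 358-base exon, had 32 and 22 reads against 42 and 28 on the coding Srsf9-201, or 43.2% and 44.0% of annotated reads, and 32 of 108 and 22 of 88 of all reads of the gene. Without Srsf9 the list stood at 2.63% and 1.52% of its annotated reads, on either side of that 1.93%. Srsf3-201 had 13 and 3 reads (8.50% and 3.33%). The members of Srsf2 had 2 and 3 (1.05% and 2.78%), Tra2b-206 had 3 and 1, Srsf6 2 and 1, and Srsf7 1 and 0.

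Other splicing regulators stood at 2.99% and 2.45%, with 15 of 54 genes holding NMD-typed reads. Khdrbs3 held 71.6% of these, and without it the list was at 0.786% and 0.963% of its annotated reads. Those values are not on the base of the 1.93% above. The list's 34 genes with an annotated NMD transcript had 2676 and 1731 annotated reads, of which 161 and 82 were NMD-typed. Khdrbs3 made up 423 and 237 of these annotated reads and 122 and 52 of the NMD-typed ones. That the other genes lie above 1.93% is not shown. Rbm39, of a splicing coactivator, had 12 and 8 reads on 3 of 8 annotated NMD transcripts (7.02% and 5.88%). Tardbp, of TDP-43, had 5 of 23 and 7 of 22 reads on 2 of 10 annotated. Snrpa1-201 and Snrpb-203, of spliceosome proteins, had 6 and 3, and 5 and 5 reads. Splicing kinases had 4 and 3 NMD-typed reads in all, among them Clk1-210, which skips a 91-base exon. The hnRNP proteins stood at 0.487% and 0.913%, with Hnrnpa1-203 at 8 and 4 reads and Hnrnpdl-201 at 2 and 10. RNA helicases stood at 2.85% and 7.54%, of which Ddx5 was 98.7%.

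No NMD-typed read was found in the genes of the NMD pathway itself. The 25 genes, which include Upf1, Upf2, Smg1, Smg5 and the junction complex genes Eif4a3 and Rbm8a, had 780 and 553 annotated reads, and 6 of them have an annotated NMD transcript. The other 19 genes, Upf1 and Eif4a3 among them, could hold no such read by their annotation. The 6 genes with an annotated NMD transcript had 95 and 68 annotated reads, from 0 and 1 for Smg1 to 53 and 40 for Ruvbl2, and a count of 0 allows a share of up to 3.16% and 4.41% in them.

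The lists of synaptic genes held few NMD-typed reads, although Cbarp, Syt16 and Hrh3, which are in none of these lists, held many, as given above. Presynaptic proteins had 2 and 5 NMD-typed reads of 12493 and 7827 (0.0160% and 0.0639%), most of them on Stx1a-204 of syntaxin 1A. Only 6 of these 37 genes have an annotated NMD transcript, with 1760 and 1133 of the reads, and the others could hold no such read. Postsynaptic proteins had 0 of 973 and 0 of 665. Their 5 genes with an annotated NMD transcript had 143 and 127 of these reads, in which a count of 0 allows up to 2.10% and 2.36%. Receptors of glutamate and GABA had 1 read in each library, on Gabra2-204 and Grik5-202. Ion channels stood at 2.06% and 2.52%, of which Kcna6 was 97.0%, and without it at 0.0390% and 0.115%. Myelin genes stood at 2.70% and 2.58%, all of it Mobp-204. Astrocyte genes had 0 of 12334 and 0 of 8891, but 1 of the 20 genes has an annotated NMD transcript, and its 352 and 273 reads allow up to 0.852% and 1.10%.

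By share of reads, several housekeeping classes lay below all genes. Cytosolic ribosomal proteins had 10 and 2 NMD-typed reads of 9280 and 6495 (0.108% and 0.0308%), translation factors stood at 0.0881% and 0.114%, chaperones at 0.0740% and 0.0684%, and the cytoskeleton at 0.00437% and 0.00632%. Of the 22888 and 15825 cytoskeleton reads, 3149 and 2169 were in genes with an annotated NMD transcript. Over all genes these were 186801 of 719478 and 123481 of 480951. Glycolysis and energy supply had 0 of 15114 and 0 of 9676, and the 3435 and 2191 reads of its 7 genes with an annotated NMD transcript allow up to 0.0873% and 0.137%. The respiratory chain stood at 0.158% and 0.199%, led by Ndufs4-202 of complex I with 10 and 8 reads. Proteasome and ubiquitin genes stood at 0.224% and 0.251%, of which Psma3, a core proteasome subunit, was 57.9%. Psma3-201 had 16 and 10 reads. Aminoacyl-tRNA synthetases stood near all genes, at 0.550% and 0.517%, but Yars2 held 68.4% of their NMD-typed reads. Yars2-203 had 9 and 4 reads, and without Yars2 the list stood below all genes, at 0.139% and 0.225%. Counted by genes, the classes with a low share of reads were divided. The count was made among genes with an annotated NMD transcript and at least 20 annotated reads in each library. NMD-typed reads were found in 5 of 17 cytosolic ribosomal (29.4%), 8 of 22 proteasome and ubiquitin (36.4%) and 9 of 19 respiratory chain genes (47.4%), against 28.5% over all genes. Below that value lay translation factors with 1 of 8 genes (12.5%), chaperones with 1 of 11 (9.09%) and the cytoskeleton with 2 of 9 (22.2%). Mitochondrial ribosomal proteins, at 0.295% and 0.231% of reads, had 3 of 15 genes (20.0%). Vesicle transport, at 0.160% and 0.175% of reads, had 11 of 43 (25.6%). By the same count SR proteins had 5 of 9 (55.6%) and other splicing regulators 11 of 18 (61.1%). Glycolysis and energy supply, with 0 of 7, lay below it too. Zinc finger proteins stood above all genes, at 1.22% and 1.34%, with Zfp938-202 at 17 and 9 reads. Of their 301 genes with reads, 52 have an annotated NMD transcript, and 20 had NMD-typed reads. The 52 genes held 586 of 3698 and 426 of 2620 annotated reads, and 3 of them had at least 20 in each library. With all reads of the genes as the base, ion channels stood at 1.19% and 1.41%, zinc finger proteins at 0.781% and 0.846%, SR proteins at 4.28% and 3.22%, other splicing regulators at 2.04% and 1.57%, splicing kinases at 0.771% and 0.741%, hnRNP proteins at 0.283% and 0.526%, and all genes at 0.375% and 0.361%. No list was tested against the others, and several rest on 1 gene.

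**Figure D5:**
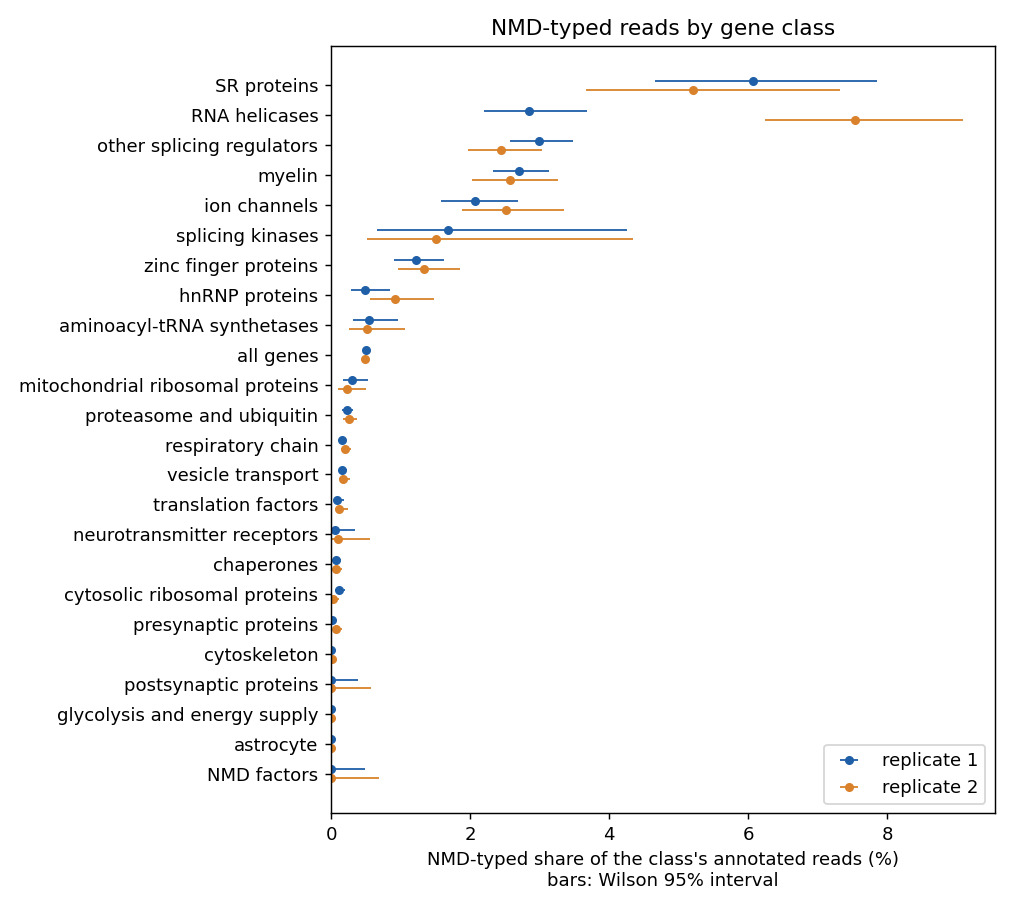
NMD-typed share of the annotated reads of each gene class (x axis, %) in replicate 1 (blue) and replicate 2 (orange), with Wilson 95% intervals as bars. SR proteins lie at 6.06% and 5.20%, all genes at 0.502% and 0.492%, and NMD factors, astrocyte, glycolysis and postsynaptic genes at 0 in both libraries.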

How the data were processed

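The authors deposited 1 table of raw read counts per library, in whole reads per transcript model, listing only models with at least 1 read, and the models' exons on mm10. Alignment was to mm10 with GENCODE M21, per the file headers, and the source field of the deposited models names TALON. The aligner is not given in the sources used here, nor are versions. Transcript types and exons of the deposited models were checked against GENCODE M21 and were identical for all 141862 transcripts, so that stop codons and sequences were taken from GENCODE M21.

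Shares, Wilson 95% intervals and exact tests were computed with SciPy 1.17.1, with a pseudocount of 0.5 reads in log2 ratios and Benjamini-Hochberg adjustment over all annotated transcripts tested. With 1 group no model of conditions could be fitted, and edgeR 4.0.16 and DESeq2 1.42.0 (R 4.3.3) served only for alternative scalings. Members sharing an intron chain with a transcript of another type were left out in 1 alternative. Other alternatives varied base, read minimum, scaling, pseudocount and coding reference. Replicates come from labels that number 1 group, so p-values weigh counting error between these libraries and not animals.

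Named transcripts are the 20 with the highest mean RPM, up to 3 per gene list with the most reads, genes with the 15 highest shares, up to 10 with the smallest adjusted p in each test, and the NMD factor genes. Further ones named for their structure, their sequence or their number of members were chosen after their values were seen. The members and lists were chosen with earlier results of these data known, and 2 lists were corrected for genes matched by mistake.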

Additional observations from a re-analysis of the deposited data

How the results depend on the processing

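No paired analysis was possible because both libraries belong to 1 group. With a minimum of 2 reads 498 members remained, and with 5 reads 229. Over single libraries, left out in turn, the NMD-typed share was 0.492 to 0.502% and the number of members 542 to 649. The tests between libraries cannot be made with 1 library. Against the coding transcript with most exons, 56 members had a retained intron in place of 34, 13 an intron within an exon in place of 26, 59 another first exon in place of 28, and 8 no difference in place of 0. The main call on shares stayed at 1 member in every alternative run, while calls over all transcripts went from 3 to 9 of 8734 with all reads of the gene as the base and to 5 of 2962 with 50 annotated reads per gene. Calls on levels stayed at 3 members, except 2 with totals of annotated reads, where Mobp-204 was lost. With all 989834 and 675947 reads of annotated genes as the base the NMD-typed share had a mean of 0.358%. That base is not the one of the class values above, on which all genes stood at 0.375% and 0.361%. Without members that share an intron chain with another type, Kcna6 had a share of 0. With all reads of the gene as the base, 13 of the 15 highest gene shares and 13 of 24 class values, all genes among them, moved by more than the spread between the libraries. No direction between the libraries reversed among the results recomputed. Reads limit what can be seen: 301 of 799 members rest on 1 read.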

Other observations

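Some transcripts typed as protein-coding had the geometry of the NMD-typed ones. The stop codon lay 50 bases or more before the last junction in 63 of 17339 protein-coding transcripts with reads and an annotated stop, which took 2005 and 1323 reads, 0.279% and 0.275% of annotated reads. They include Strn4-201, of a striatin family scaffold of the STRIPAK complex, with 530 and 288 reads and a distance of 62 bases, and Ptp4a1-206, of a protein tyrosine phosphatase, with 156 and 119 reads, a distance of 805 bases and 4 junctions after the stop. Trnp1-202, of a nuclear factor of cortical progenitors, had 207 and 131 reads and a distance of 158 bases. These transcripts were the main ones of their genes: Strn4-201 took 92.5% and 90.6% of annotated reads, Trnp1-202 took 93.7% and 94.9%, and Ptp4a1-206 took 76.5% and 78.3%. They were named after their values were seen.

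In the other direction, 3 members had fewer than 50 bases between stop codon and last junction, although their type is nonsense_mediated_decay.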
